A study of Mus musculus with 8 samples.

Results

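Oxidative phosphorylation is carried out by 5 protein complexes of the mitochondrial inner membrane, and the genes described here are the nuclear genes of their subunits. They were taken as every row of the non-normalized table whose gene name starts with NDUF, UQCR, ATP5 or COX followed by 4 to 8, or equals one of the succinate dehydrogenase, cytochrome c1 or cytochrome c gene names. This gave 79 of 18138 rows. Of these, 33 encode complex I subunits, 3 complex II, 7 complex III, 17 complex IV and 14 complex V, 1 is the gene of cytochrome c (Cycs) and 1 is a complex I assembly factor gene (Ndufaf1). The other 3 matched by name although they encode no subunit: COX4NB is the older name of Emc8, a subunit gene of a complex that inserts membrane proteins in the endoplasmic reticulum, and ATP5S and ATP5SL are now Dmac2l and Dmac2. Sdha, Cox8a, Atp5g1 and the subunits encoded by mitochondrial DNA are not analysed here.

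The cells were mouse OT-1 CD8+ T cells, which carry a transgenic T cell receptor for the ovalbumin peptide SIINFEKL, taken after 24 h of coculture at a ratio of 5 to 1 and sorted as CD8+ CD69+. In 4 samples the stimulators were CD40-activated B cells (cB) and in 4 samples dendritic cells (DC), both LPS-matured and loaded with the same peptide. The T cells were thus measured after activation in both groups, and there was no unstimulated group. Each sample was hybridised to an Illumina mouse-ref8-v2.0 beadchip. Nothing in the labels ties replicates to separate cultures or mice. The p-values therefore reflect the spread among these 4 samples per group, and that spread may be technical only.

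Mean intensity per array lay between 602 and 824 on the cB arrays and between 622 and 757 on the DC arrays, and 38.3% to 40.8% of rows were detected. All 7 T cell marker genes with a row were detected on all 8 arrays. By the test described further on, 2 (Cd2 and Thy1) were higher in cB, 2 (Cd3d and Cd3e) were higher in DC and 3 did not pass. B cell markers had a summed intensity of 4091 to 4828 on the cB arrays, against 2573 to 2850 on the DC arrays. Of 5 B cell markers tested, 4 gave higher cB values and 1, Pou2af1, a higher DC value, while Pax5, Cd22, Blk and Cr2 were undetected on every array. Dendritic and myeloid markers summed to 4336 to 5727 on the cB arrays and 5535 to 5669 on the DC arrays. Of 5 tested, 1 (Fscn1) was higher in cB and 4 were higher in DC, and Itgax, Csf1r, Itgam, Ccl22 and Clec9a were undetected on every array. These marker differences run along the same comparison as every result here, and their part in the results was not tested. In such bulk RNA, a change in the share of cells that express a gene and a change in RNA per cell cannot be told apart.

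In the respiratory chain, complex I takes electrons from NADH and complex II takes them from succinate, and both pass them to ubiquinone. Complex III hands them on to cytochrome c, and complex IV delivers them to oxygen. Complexes I, III and IV pump protons across the inner membrane, and complex V, the ATP synthase, uses the returning protons to make ATP. Activated CD8 T cells are known to raise respiration as well as glycolysis when they begin to grow and divide.

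Because nuclear respiratory genes share regulators, their start regions are shown before the values. RefSeq promoter windows of GRCm38.p6 ran from 250 bases before to 50 bases after a listed gene start. Some genes have several starts, and some listed starts lie inside the annotated gene. The windows were searched on both strands for 3 short motifs. These were GCGCANGCG for the factor NRF1, CCGGAAG for ETS factors such as GABPA, and AAGATGGCG for YY1. The NRF1 letters occurred in 6.25% of all 32851 windows, the ETS letters in 8.86% and the YY1 letters in 1.4%. Windows were found for 21 of 26 subunit and assembly genes called higher in cB by the test described further on, 11 of 12 called higher in DC and 23 of 26 that passed in neither direction. Among genes called higher in cB, the NRF1 letters stood in 8 of 23 windows (34.8%), the ETS letters in 6 (26.1%) and the YY1 letters in 3 (13%). Among those called higher in DC they stood in 1 of 12 (8.33%), 2 (16.7%) and 1 (8.33%). Among tested genes that passed in neither direction they stood in 7 of 25 (28%), 7 (28%) and 3 (12%). The genes that passed in neither direction thus held the NRF1 letters at a share nearer to that of the genes higher in cB than to that of all windows. These shares were not tested, and a match describes the letters only.

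The 6 stretches that follow run from 100 bases before to 30 bases after the listed gene start on the coding strand, and capitals mark matches to the 3 motifs. For Ndufa13 the listed start lies inside the annotated gene, chr8:69894163-69902558, so its stretch does not show the annotated start of the gene. The first 4 belong to genes higher in cB that hold a match and the other 2 to genes higher in DC that hold none. They were picked for this contrast after the values had been seen. All 6 genes lie on the minus strand, at chr16:91931601-91931730 for Atp5o, chr15:102671018-102671147 for Atp5g2, chr10:80406792-80406921 for Uqcr11, chr13:73328453-73328582 for Ndufs6, chr17:83514304-83514433 for Cox7a2l and chr8:69901991-69902120 for Ndufa13.
Atp5o: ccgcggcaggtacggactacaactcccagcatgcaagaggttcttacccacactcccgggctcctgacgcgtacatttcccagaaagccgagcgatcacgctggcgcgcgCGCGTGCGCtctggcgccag
Atp5g2: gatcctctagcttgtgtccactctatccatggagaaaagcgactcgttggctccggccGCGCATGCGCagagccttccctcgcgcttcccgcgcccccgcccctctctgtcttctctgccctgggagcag
Uqcr11: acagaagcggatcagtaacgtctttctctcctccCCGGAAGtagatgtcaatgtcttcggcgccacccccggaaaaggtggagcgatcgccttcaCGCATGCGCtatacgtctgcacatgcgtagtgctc
Ndufs6: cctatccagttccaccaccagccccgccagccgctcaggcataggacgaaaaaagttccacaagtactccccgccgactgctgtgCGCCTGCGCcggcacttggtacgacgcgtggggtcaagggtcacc
Cox7a2l: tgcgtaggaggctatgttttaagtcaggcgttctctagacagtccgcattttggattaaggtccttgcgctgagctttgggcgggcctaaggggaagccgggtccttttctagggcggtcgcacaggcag
Ndufa13: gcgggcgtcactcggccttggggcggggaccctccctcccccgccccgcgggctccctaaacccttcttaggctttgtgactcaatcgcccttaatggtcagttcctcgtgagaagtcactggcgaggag
In Atp5g2 the match begins 42 bases before the gene start and reads the same on both strands, so its ends overlap as 2 matches. Uqcr11 holds an ETS match from 66 bases before the start as well as an NRF1 match at the start itself.

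Complex V genes were higher in cB or did not pass, and the catalytic core of complex I followed the same pattern. The accessory subunits of complex I and complexes III and IV held calls in both directions, as did all genes tested (29.8% higher in cB and 31.6% higher in DC), and complex II gave no call. Most differences were modest: 63 of the 67 genes tested differed by less than 2-fold, against 5407 of all 7167 genes tested. A gene was tested when its detection p was below 0.05 on at least 4 of the 8 arrays, and it was called when limma's Benjamini-Hochberg adjusted p over all 7167 genes tested was below 0.05.

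Of the 67 genes that passed detection, 27 (40.3%) were called with the cB arrays higher and 12 (17.9%) with the DC arrays higher, and 28 did not pass. Over all genes tested, 61.4% were called, 29.8% with cB higher and 31.6% with DC higher. The share called in either direction, 58.2%, was therefore close to that of genes in general, while the split leaned to cB, with 69.2% of the calls among these genes against 48.5% of the calls among all genes. When arrays were scaled to a common median in place of quantile normalization, the calls were 23 higher in cB and 5 higher in DC, and 82.1% of them were on the cB side, against 53.1% of the calls among all genes with that scaling. The median log2 difference (cB minus DC) was 0.20 over the 67 genes and -0.03 over all genes tested. The values of cB and DC arrays did not overlap in 38 of the 67 genes, 26 with cB above DC and 12 with DC above cB, and 56.8% of all genes tested had no overlap, so separation as such was no more common here than elsewhere.

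**Figure D1:**
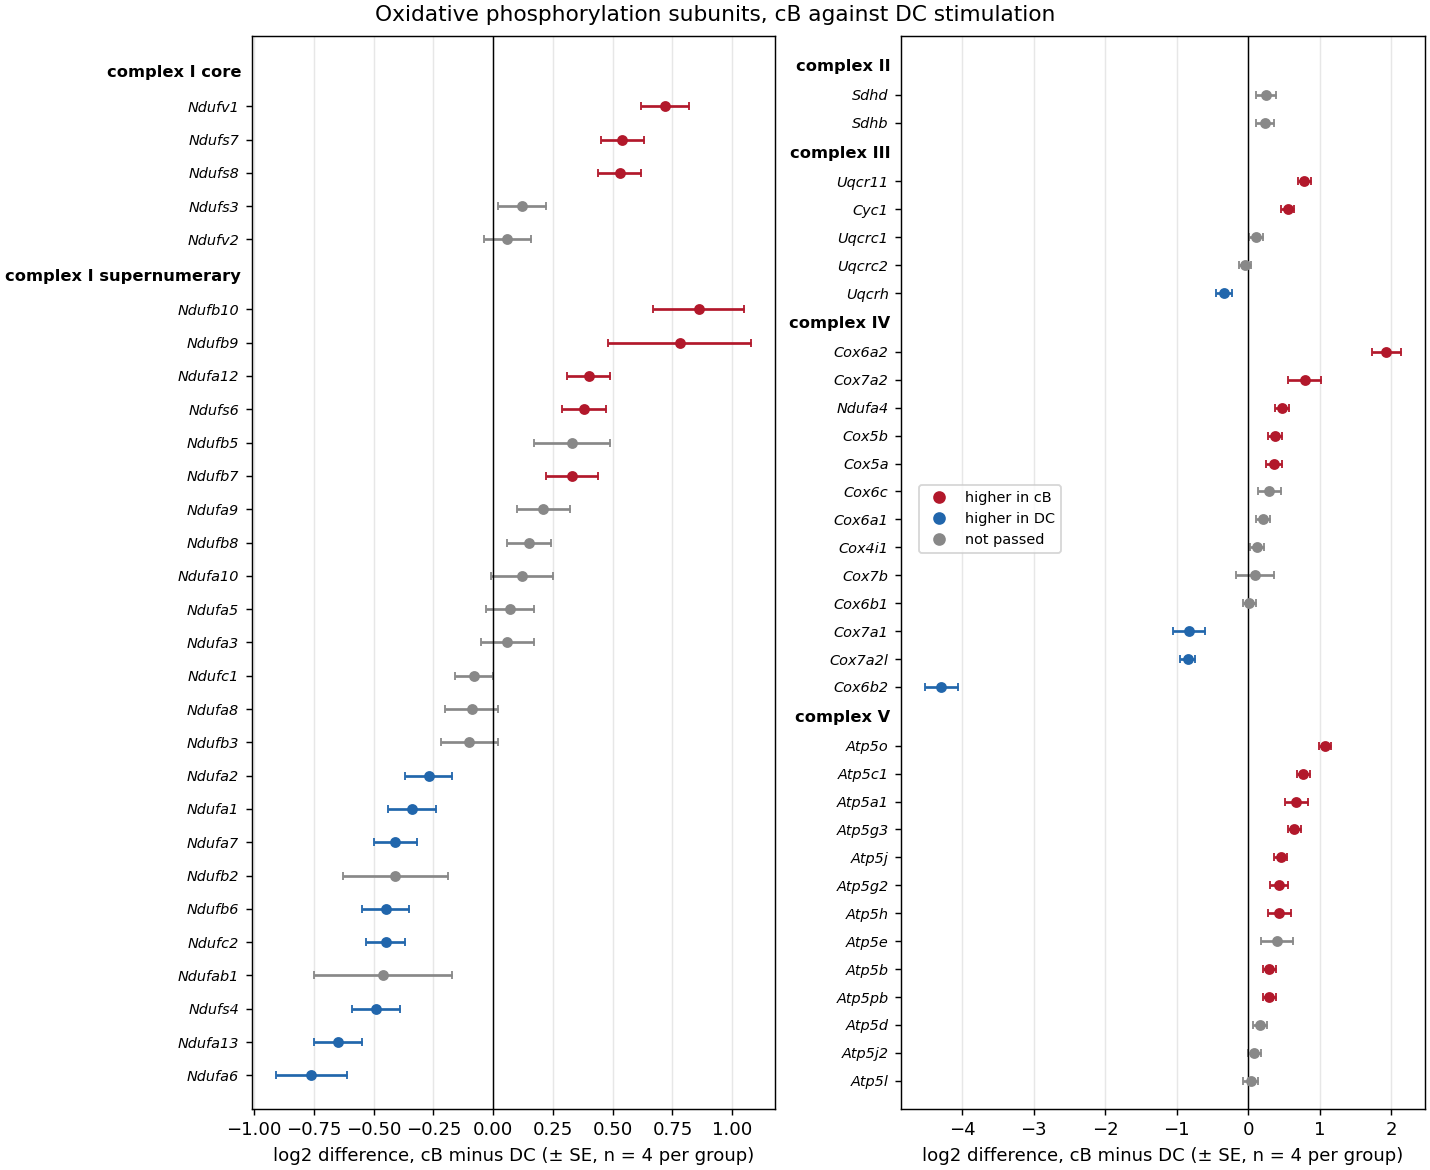
Log2 difference, cB minus DC, with its standard error (n = 4 arrays per group) for the tested subunit genes but 1, ordered within complexes, with a wider horizontal scale in the panel of complexes II to V. Complex V lies wholly to the right of 0, from 0.03 to 1.07, whereas accessory genes of complex I run from -0.76 to 0.86; Cox6a2 was not above background on the DC arrays, so its point is not a measured size.

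All tested complex V genes had a positive difference. Of its 14 genes, 13 were tested, and 9 were called higher in cB and none higher in DC, with a median log2 difference of 0.43 and a range from 0.03 to 1.07. The calls covered both parts of the enzyme: 3 of 5 tested genes of the catalytic F1 head and its stalk, and 6 of 8 of the membrane rotor and the side stalk. Atp5k, a small membrane subunit gene, was undetected on all arrays.

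Atp5o encodes the subunit at the top of the side stalk that holds the F1 head in place. On the normalized log2 scale it read 9.48, 9.52, 9.64 and 9.51 on the cB arrays, against 8.37, 8.61, 8.44 and 8.46 on the DC arrays. The groups were far apart relative to their spread, at 2.1-fold (1.07 ± 0.09, SE, n = 4 per group, adjusted p = 6.4e-06). Atp5c1, the gene of the central rotating shaft, read between 13.09 and 13.21 on the cB arrays, against 12.31, 12.33, 12.42 and 12.36 on the DC arrays. Its difference was 0.77 ± 0.09 (adjusted p = 3.5e-05), again without overlap. The c-ring of the rotor, which protons turn, is encoded by several genes that give the same mature protein, and Atp5g3 and Atp5g2 were both called. Atp5g3 read 14.78, 14.70, 14.87 and 14.87 in cB and 14.08, 14.17, 14.25 and 14.16 in DC (0.64 ± 0.09, adjusted p = 0.00017). Atp5g2 read 11.14, 11.61, 11.60 and 11.45 in cB and 10.85, 11.13, 11.04 and 11.05 in DC (0.43 ± 0.13, adjusted p = 0.014). The lowest cB value of Atp5g2 lay just above its highest DC value.

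The genes of the ring of catalytic subunits were called too. Atp5a1, the alpha subunit gene, differed by 0.67 ± 0.16 and Atp5b, the beta subunit gene with the catalytic sites, by 0.29 ± 0.09. Atp5b was the brightest row of the whole set, with group means of 15.26 in cB and 14.97 in DC. The side stalk genes Atp5j (0.45 ± 0.09), Atp5h (0.43 ± 0.16) and Atp5pb (0.29 ± 0.09, ATP5F1 in the files) were also called, although the groups overlapped in Atp5h. The call of Atp5h was lost under 9 of 17 alternatives, among them leaving out cB replicate 1 or 3 or DC replicate 1, 2 or 3, and that of Atp5pb without DC replicate 1. With median scaling Atp5b and Atp5h were not called and 7 complex V genes were. Atp5d, Atp5e, Atp5j2 and Atp5l did not pass, with differences of 0.16, 0.40, 0.08 and 0.03. Atp5l, which takes part in pairing of the enzyme, had the smallest difference, with 11.55, 11.74, 11.84 and 11.61 in cB and 11.57, 11.74, 11.68 and 11.64 in DC. The median centred level of complex V genes was positive on each cB array (0.11 to 0.26) and negative on each DC array (-0.28 to -0.16).

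**Figure D2:**
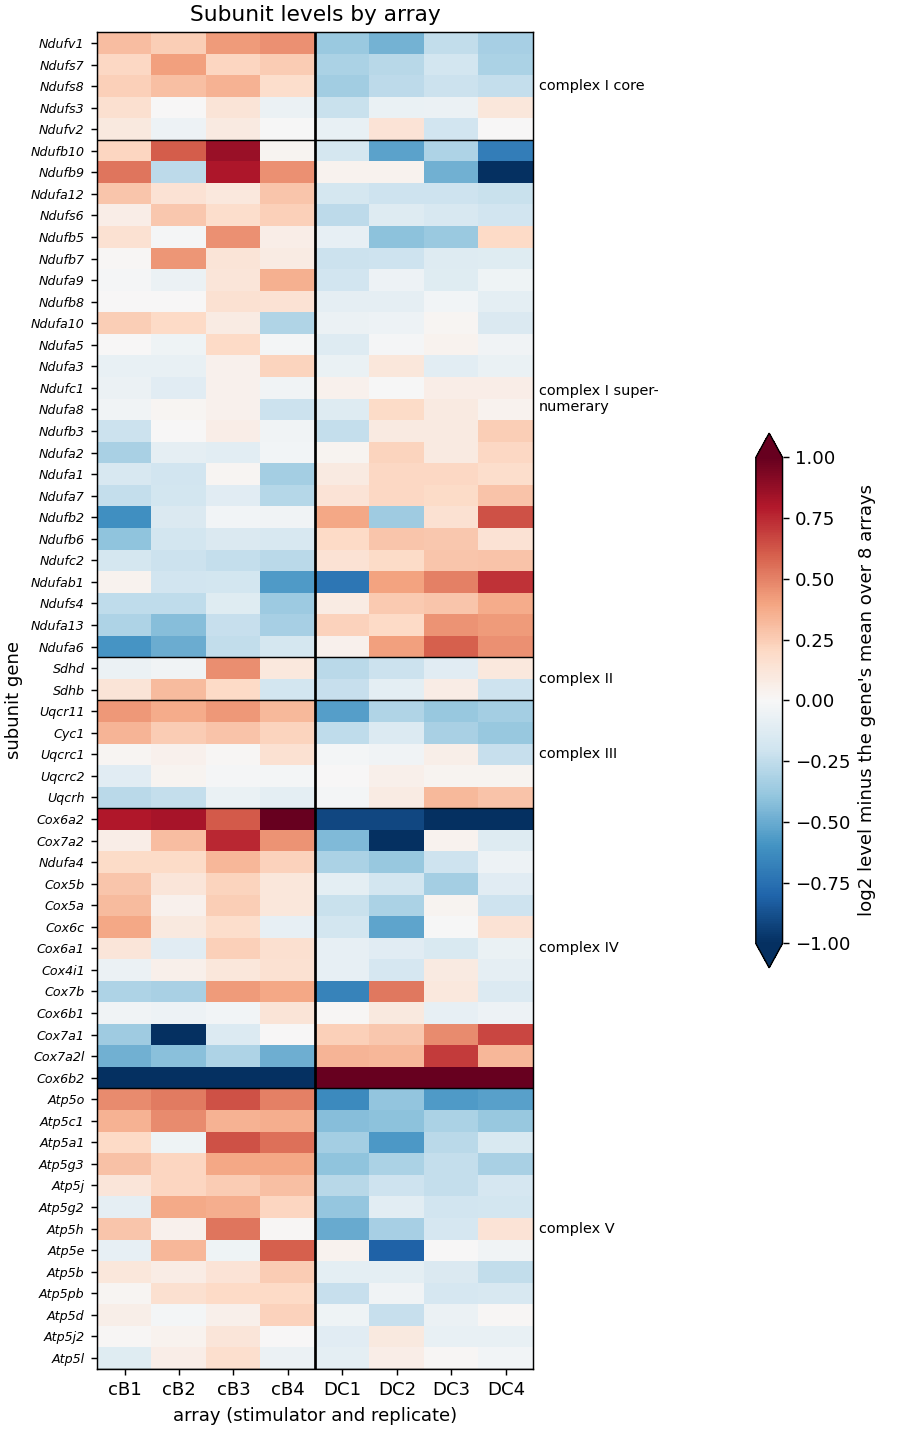
Level of the tested subunit genes but 1 on each array, as the normalized log2 value minus the gene's mean over 8 arrays, with the 4 cB arrays left of the line and the 4 DC arrays right of it; colours saturate at -1 and 1. The blocks of complex V and of the complex I core are mostly red on cB arrays and blue on DC arrays. Rows are ordered within each class by decreasing difference. The accessory block of complex I holds genes of both directions, and their split into an upper and a lower part follows from this order.

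In complex I, the core genes encode the subunits that carry the flavin, the iron-sulphur clusters and the quinone site, and the accessory (supernumerary) genes encode the subunits around them. Of 6 core genes tested, 4 (66.7%, against 29.8% of all genes tested) were called higher in cB and none higher in DC, with a median of 0.41. Of 24 accessory genes tested, 5 (20.8%) were called higher in cB and 8 (33.3%) higher in DC, and 11 did not pass, with a median of -0.09. The share higher in DC was close to the 31.6% of all genes tested. With median scaling the accessory counts were 4 higher in cB and 2 higher in DC and the median was 0.04. The core counts with median scaling were 3 and 0.

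Ndufv1, the gene of the subunit that binds NADH and the flavin, read 12.38, 12.32, 12.50 and 12.53 in cB, against 11.70, 11.60, 11.83 and 11.74 in DC. This was 1.64-fold higher in cB (0.72 ± 0.10, adjusted p = 0.00012). Ndufs7 and Ndufs8 encode iron-sulphur subunits on the path from the flavin to the quinone. Ndufs7 read 12.21, 12.41, 12.22 and 12.26 in cB and 11.69, 11.73, 11.82 and 11.69 in DC (0.54 ± 0.09). Ndufs8 read 11.94, 12.00, 12.05 and 11.88 in cB and 11.35, 11.44, 11.49 and 11.46 in DC (0.53 ± 0.09). Ndufs3 (0.12 ± 0.10) and Ndufv2 (0.06 ± 0.10) did not pass. The neighbour of Ndufv1 in the enzyme, Ndufv2, read 12.64, 12.49, 12.63 and 12.54 in cB and 12.47, 12.68, 12.35 and 12.55 in DC, and the groups overlapped. Ndufs1, the gene of the largest core subunit, was undetected on all 8 arrays.

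Among accessory genes higher in cB, Ndufa12 read 12.59, 12.46, 12.42 and 12.59 in cB and 12.14, 12.11, 12.11 and 12.09 in DC (0.40 ± 0.09, adjusted p = 0.0026). Ndufs6, whose protein joins late in assembly, read 13.54, 13.74, 13.65 and 13.71 in cB and 13.21, 13.34, 13.31 and 13.28 in DC (0.38 ± 0.09). Ndufb10 was a dim row, at 6.62, 7.01, 7.27 and 6.43 in cB and 6.23, 5.87, 6.10 and 5.71 in DC. Its difference of 0.86 ± 0.19 was 0.33 from the authors' deposited table and 0.12 with a background from all genes, called in both. Ndufb9 (0.78 ± 0.30) was similarly dim, at 0.30 from the authors' deposited table, its groups overlapped, and it was no longer called under 8 alternatives, among them leaving out cB replicate 1, 3 or 4 or DC replicate 3 or 4. Ndufb7 rose by 0.33 ± 0.11, and its call was lost with median scaling, without the detection filter and without cB replicate 2, DC replicate 1 or DC replicate 2. Ndufb4 was detected on 1 cB array and 2 DC arrays and Ndufb11 on no cB array and 2 DC arrays, and neither was tested.

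Among accessory genes lower in cB, Ndufa6 and Ndufa13 differed most. Ndufa6 read 12.53, 12.62, 12.87 and 12.94 in cB, against 13.16, 13.53, 13.71 and 13.57 in DC (-0.76 ± 0.15, adjusted p = 0.0013). Ndufa13, also known as GRIM-19 and described as a cell death regulator outside complex I, read 13.50, 13.39, 13.58 and 13.48 in cB, against 14.04, 14.01, 14.26 and 14.24 in DC (-0.65 ± 0.10, adjusted p = 0.00029). Both were bright rows, and the groups did not overlap in either. Ndufc2 read 12.83, 12.79, 12.77 and 12.74 in cB and 13.15, 13.20, 13.28 and 13.29 in DC (-0.45 ± 0.08). Ndufs4, a gene whose loss in mice gives a Leigh-like brain disease, fell by 0.49 on the log2 scale, and Ndufb6 (-0.45), Ndufa7 (-0.41), Ndufa1 (-0.34) and Ndufa2 (-0.27) were also lower in cB. Of these 8 genes, Ndufs4, Ndufb6, Ndufc2, Ndufa7, Ndufa1 and Ndufa2 were not called with median scaling. Ndufa2 lost its call under 8 alternatives, among them leaving out cB replicate 1, 2 or 3 or DC replicate 2, 3 or 4.

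Complex I is an L-shaped enzyme. Calls in both directions were found in each arm, as among all genes tested (29.8% higher in cB and 31.6% higher in DC). Of 14 tested genes of the arm that reaches into the matrix, 6 were called higher in cB and 4 higher in DC, and of 15 tested genes of the membrane arm, 3 and 4 were. This grouping was made after the values were seen, and the difference between the arms was not tested. The acyl carrier protein gene Ndufab1, which belongs to both arms, was dim and did not pass (-0.46 ± 0.29). Ndufa3 had the smallest difference among the accessory genes, 0.06 ± 0.11. Ndufaf1, which encodes a factor that assembles the membrane arm, read between 9.78 and 10.42 in cB, against 9.26, 9.09, 9.39 and 9.29 in DC (0.82 ± 0.14, adjusted p = 0.00067).

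Complex II, which also works as an enzyme of the citric acid cycle, gave no call. Sdhb, the iron-sulphur subunit gene, read 9.77, 9.95, 9.84 and 9.45 in cB and 9.41, 9.54, 9.71 and 9.43 in DC (0.23 ± 0.13, adjusted p = 0.15). Sdhd, a membrane anchor gene, lay near background at 5.69, 5.72, 6.22 and 5.86 in cB and 5.48, 5.54, 5.64 and 5.86 in DC (0.24 ± 0.14, adjusted p = 0.17). Sdhc, the other anchor gene, was not tested because its detection p was above 0.05 on all arrays, although its level was not dim, at 10.32, 10.63, 10.25 and 10.32 in cB and 10.16, 10.25, 10.18 and 10.14 in DC. With a filter on signal in place of the detection p, its difference was 0.19 ± 0.10 (adjusted p = 0.13). In all 3 genes the means were slightly higher in cB and the differences did not exceed the threshold. Cycs, the cytochrome c gene, was detected on 1 cB array and no DC array and was not tested.

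In complex III, 2 of 5 tested genes were called higher in cB and 1 higher in DC (40% and 20%, against 29.8% and 31.6% of all genes tested). Uqcr11, a small accessory subunit gene listed as UQCR, read 12.97, 12.91, 12.97 and 12.86 in cB, against 11.99, 12.24, 12.16 and 12.20 in DC (0.78 ± 0.09, adjusted p = 5.5e-05). Cyc1, the gene of cytochrome c1, which passes electrons to cytochrome c, read 12.40, 12.31, 12.34 and 12.28 in cB and 11.80, 11.92, 11.73 and 11.68 in DC (0.55 ± 0.09, adjusted p = 0.00055). Both were clear of overlap. Uqcrh, the hinge protein gene that lies beside Cyc1 in the enzyme, went the other way. It read 13.49, 13.52, 13.69 and 13.66 in cB and 13.74, 13.84, 14.08 and 14.04 in DC (-0.34 ± 0.11, adjusted p = 0.022). The call of Uqcrh was lost with median scaling and without cB replicate 1, cB replicate 2, DC replicate 3 or DC replicate 4. The large scaffold genes Uqcrc1 (0.11 ± 0.10) and Uqcrc2 (-0.05 ± 0.08) did not pass, and Uqcrc2 was nearly level across arrays, at 13.12, 13.26, 13.22 and 13.21 in cB and 13.23, 13.28, 13.26 and 13.26 in DC. Uqcrfs1, the Rieske iron-sulphur gene, and Uqcrq were undetected on all arrays.

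Of 13 tested complex IV genes, 5 had called differences with cB higher and 3 with cB lower (38.5% and 23.1%, against 29.8% and 31.6% of all genes tested). Ndufa4, once assigned to complex I and now known as a complex IV subunit, read 13.46, 13.46, 13.60 and 13.50 in cB and 12.95, 12.89, 13.06 and 13.22 in DC (0.47 ± 0.10, adjusted p = 0.0025). Cox5b, a subunit on the matrix side, read 14.13, 13.98, 14.08 and 13.97 in cB and 13.76, 13.67, 13.52 and 13.74 in DC (0.37 ± 0.10), and Cox5a rose by 0.36 ± 0.11. Cox4i1 (0.12), Cox6a1 (0.20), Cox6c (0.29), Cox7b (0.09) and Cox6b1 (0.01) did not pass.

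Cox6b2, known as the testis form of the subunit at which complex IV pairs, had the largest difference of all 67 genes. Its raw intensities were 222, 170, 236 and 196 on the cB arrays, against 850, 1050, 1700 and 1420 on the DC arrays. On the normalized log2 scale these were 6.17, 5.44, 6.17 and 5.49 in cB and 9.61, 10.04, 10.39 and 10.39 in DC, or 19.5-fold higher in DC (-4.29 ± 0.23, adjusted p = 2.5e-07). The size rested on the background, at -2.65 from the authors' deposited table and -2.31 with a background from all genes, past the threshold in both. The row was called detected on 3 cB arrays and 2 DC arrays, so its detection p did not follow its signal. Cox6b1, the widely expressed form, was level, at 13.04, 13.03, 13.05 and 13.21 in cB and 13.09, 13.18, 13.00 and 13.03 in DC.

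Cox6a2, known as the heart and muscle form of a regulatory subunit, was at least 2.53-fold higher in cB with the background used here. It was detected on all 4 cB arrays, at 6.71, 6.73, 6.52 and 7.54, and on no DC array, where it read 5.00, 5.00, 4.88 and 4.89. It is counted among the calls higher in cB, although it passed the detection filter only through the cB arrays. The bound holds for that background alone. The measured difference, 1.93 on the log2 scale, was only 0.71 from the authors' deposited table and 0.22 with a background from all genes. In the RefSeq annotation Cox6a2 overlaps Itgad, an integrin gene. The remaining tissue-restricted forms, Cox4i2, Cox7b2, Cox8b and Cox8c, were undetected on every array.

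The COX7A family split. Cox7a2l, also known as SCAF1, joins complexes III and IV into supercomplexes. It read 11.69, 11.75, 11.86 and 11.68 in cB, against 12.51, 12.50, 12.87 and 12.50 in DC, 1.8-fold higher in DC (-0.85 ± 0.11, adjusted p = 0.00011). Cox7a1, known as the heart and muscle form, was also higher in DC, at 7.15, 6.35, 7.37 and 7.51 in cB and 7.75, 7.78, 7.98 and 8.18 in DC (-0.83 ± 0.23, adjusted p = 0.012). Cox7a2, the widely expressed form, was higher in cB, at 7.41, 7.65, 8.10 and 7.79 in cB and 6.90, 6.30, 7.38 and 7.21 in DC (0.79 ± 0.23, adjusted p = 0.014). Cox7a1 and Cox7a2 were dim, and their differences were -0.45 and 0.41 from the authors' deposited table and -0.23 and 0.20 with a background from all genes, called in each. The groups did not overlap in any of the 3 genes.

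**Figure D3:**
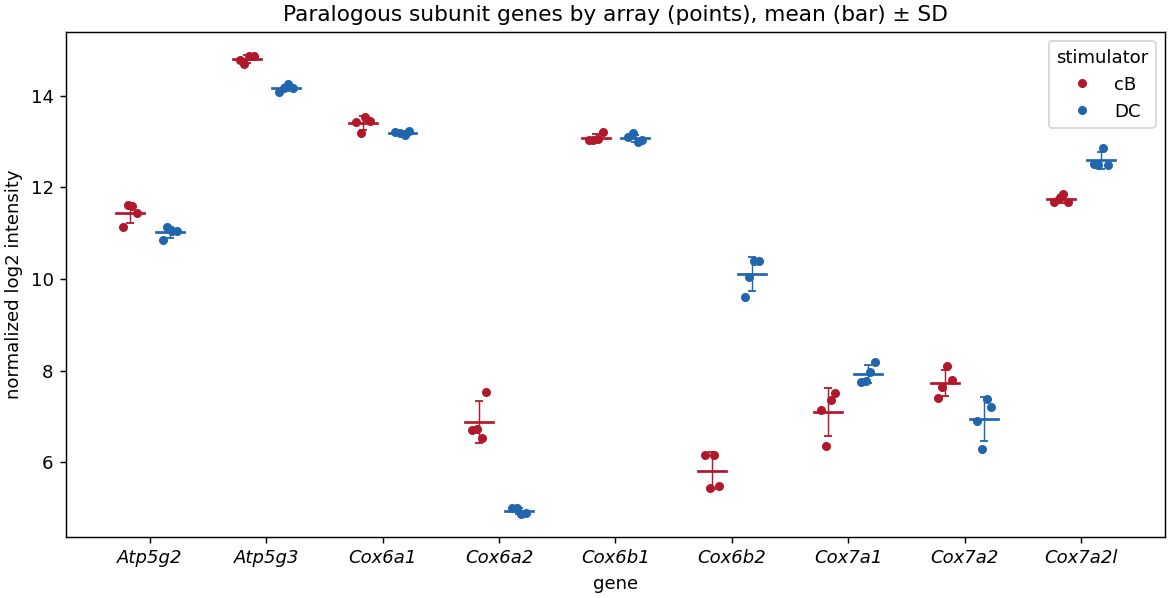
Normalized log2 intensity of paralogous subunit genes on each array, cB (red) left of DC (blue), with points for arrays, bars for means and whiskers for SD (n = 4 per group). Cox6b1 is level while Cox6b2 averages 5.82 in cB and 10.11 in DC, and Cox7a2 is shifted in the direction opposite to Cox7a1 and Cox7a2l; heights of different genes are not comparable, since each row has its own probes.

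Whether paralogues moved apart was tested on the log2 ratio within each array. Of 10 pairs listed, 5 had both genes tested, and each was compared between cB and DC with a two-sided exact permutation test, whose smallest possible p at 4 against 4 arrays is 0.0286. The Cox7a2 to Cox7a2l ratio was higher in cB by 1.64 on the log2 scale and the Cox7a1 to Cox7a2 ratio lower by -1.62. The Cox6b1 to Cox6b2 ratio was higher in cB by 4.30. Each of these 3 pairs gave the smallest possible exact p, 0.0286, and 0.0358 after Benjamini-Hochberg adjustment over the 5 pairs. The single genes given above already separated the groups, in opposite directions for the COX7A genes and with Cox6b1 level beside Cox6b2. These ratios therefore had to separate as well, and their p-values add no support. Cox7a2 is in both COX7A pairs. From the authors' deposited table the Cox7a1 to Cox7a2 change was -0.86 and the Cox7a2 to Cox7a2l change 1.24, and the Cox6b1 pair was not formed. No ratio is given for Cox6a1 and Cox6a2, since Cox6a2 was not above background on any DC array, although this pair is among the 5 adjusted over. For the c-ring genes the Atp5g2 to Atp5g3 ratio differed by -0.21 (exact p = 0.143), with an SD of 0.23 in cB and 0.09 in DC.

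Of the 3 rows that are no subunit genes, Emc8 was 3.1-fold higher in cB, at 10.03, 10.05, 9.66 and 9.94 in cB and 8.50, 8.25, 8.02 and 8.38 in DC (1.63 ± 0.13, adjusted p = 4.3e-06). Dmac2, a factor in the assembly of the complex I membrane arm, differed by -0.15 and Dmac2l by -0.16, and neither passed. Without these 3 rows and Ndufaf1, 25 of 63 tested subunit genes were called with cB higher and 12 with DC higher. These were 39.7% and 19%, against 29.8% and 31.6% of all genes tested. Besides Emc8, the called genes past 2-fold at these settings were Cox6b2, Cox6a2 and Atp5o. Over all genes tested, 24.5% were called and at least 2-fold apart.

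Genes that work beside the complexes were read from 4 lists. Of 15 tested genes of the citric acid cycle and pyruvate dehydrogenase, which supply the chain with NADH and succinate, 11 were higher in cB and none in DC, with a median of 0.52. Idh3a (1.39 ± 0.11) and Cs, citrate synthase (1.35 ± 0.14), and Fh1, fumarase (1.11 ± 0.10), had the lowest p. Of 9 tested carrier and inner membrane genes, 7 were higher in cB and none in DC, with a median of 0.57. The outer membrane channel gene Vdac1 (1.76 ± 0.13), the ATP/ADP exchanger gene Slc25a5 (1.27 ± 0.09) and the prohibitin gene Phb2 (1.08 ± 0.10) led them. Over all genes tested the share higher in cB was 29.8%.

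Of 29 tested rows of assembly factors, 10 were higher in cB and 8 in DC, near the 29.8% and 31.6% of all genes tested. Cox15, for the haem of complex IV (1.11 ± 0.10), and the complex I factors Ecsit (1.26 ± 0.15) and Foxred1 (0.93 ± 0.11) were higher in cB. Sdhaf1, for complex II (-1.50 ± 0.12), and Cox20 (-0.92 ± 0.20) and Surf1 (-0.49 ± 0.13, and -0.30 from the authors' deposited table), both for complex IV, were lower. Of 12 tested genes of nuclear regulation and mitochondrial DNA expression, 3 rose in cB and 3 fell, which is also near those shares. The coactivator gene Ppargc1b was among those higher in cB, and no size is given because it was detected on 4 cB arrays and only 1 DC array. Tfb1m (1.11 ± 0.24, and 0.50 from that table) and Tfam (0.50 ± 0.10), both for mitochondrial DNA expression, were the others. Gabpb1 (-1.48 ± 0.14), the partner of GABPA, Esrra (-0.72 ± 0.12) and Nrf1 (-0.51 ± 0.11) were lower in cB.

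**Figure D4:**
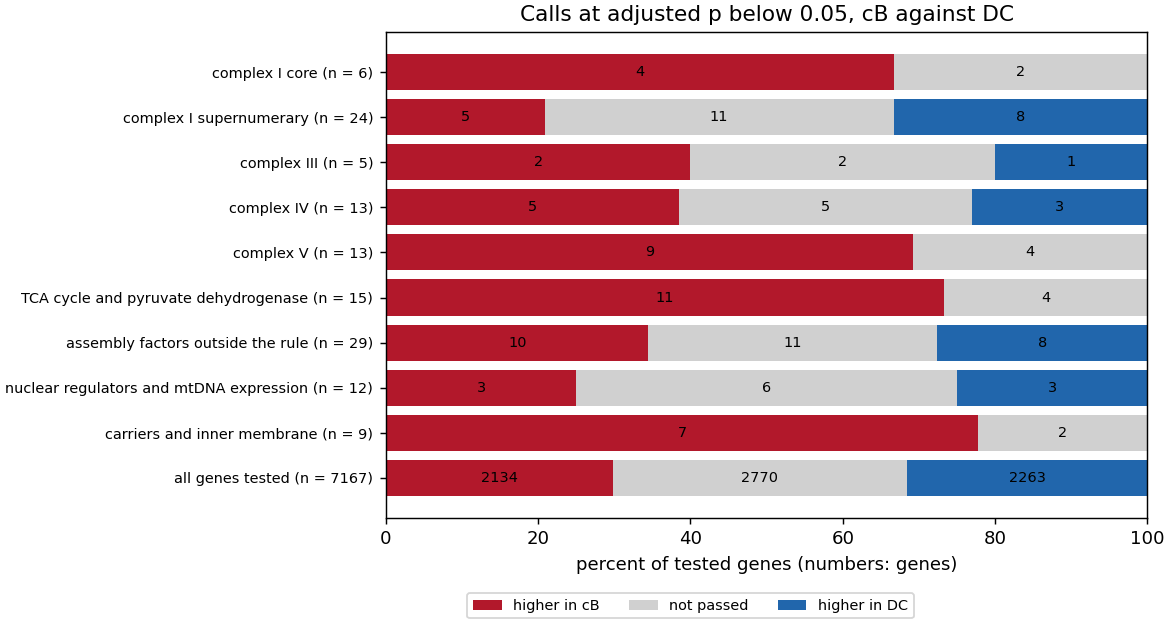
Share of tested genes called higher in cB (red), not passed (grey) and higher in DC (blue) for each complex with at least 5 tested genes, the 4 accompanying lists and all genes tested, with the number of genes in each segment. Complex V, the complex I core, the citric acid cycle and the carrier lists hold no gene called higher in DC.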

How the data were processed

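OT-1 T cell RNA was measured on 8 Illumina beadchips, 4 per group, and groups and replicate numbers came from the sample titles. The deposited non-normalized table gives average bead intensity on a linear scale, and a detection p-value for each row, per the file headers. A second deposited table holds the authors' own log2 values for 7266 genes, normalized by a method that no source used here gives, and was fitted with the same model as an alternative. Precision is limited by the number of arrays.

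Using limma 3.58.1 in R 4.3.3, intensities were normexp corrected (offset 16), log2 transformed and quantile normalized. The background came from the 13929 rows whose detection p-values were whole multiples of 1 part in 798 (tolerance 0.001 of a step). Genes detected (p below 0.05) on at least 4 arrays were fitted with lmFit and eBayes, cB minus DC, with Benjamini-Hochberg adjustment. A fold given as "at least" compares the mean of the detected group with, per array, the higher of the gene's value and the lowest detected value. All 79 names matched RefSeq, 74 by symbol and 5 by synonym. The procedure was tested on simulated data.

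Members and lists were chosen with earlier results of these data known. Values per array are given for the lowest p in each class and direction (up to 3), the smallest difference, complex II and the paralogue pairs. Emc8 was set apart after the values were seen. Alternatives covered background, offset, scaling, filters, the authors' values, a replicate block and leaving out each array. The values of 1 subunit gene are not reported here, although counts and medians include it.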

Additional observations from a re-analysis of the deposited data

Results flagged for a closer look

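In 134 groups of 4 arrays (67 genes in cB and in DC), 6 held an array far from the other 3 by Dixon's criterion, and chance alone flags about 1 in 20 groups. Cox7a2l read 12.87 on DC replicate 3, against 12.50 to 12.51 on the other DC arrays, and Ndufb8 read 13.08 on the same array, against 13.01 to 13.02. Atp5e, a dim row, read 5.35 on DC replicate 2, against 6.12 to 6.19. On the cB arrays, Atp5c1 read 13.21 on replicate 2 (others close to 13.09), Cox6b1 read 13.21 on replicate 4 (others 13.03 to 13.05) and Ndufb6 read 12.28 on replicate 1 (others 12.50 to 12.54).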

How the results depend on the processing

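Of the 39 calls, 39 were kept in direction with no background correction, with an offset of 50, with the authors' values and with a signal filter chosen after seeing the data, and none turned under any alternative. A background from all genes kept 37 calls (Atp5h and Ndufb9 were lost), no detection filter kept 35, and detection on all 8 arrays kept the 35 it still tested. The labels do not say what same-numbered samples share, and the main fit left them unpaired. Same-numbered deviations correlated weakly, at 0.11, 0.13, 0.18 and 0.082, yet every sample correlated best with its own number. Pairing by number is therefore possible. A replicate block gave 2144 genes higher in cB and 2287 higher in DC, and 25 and 12 of the respiratory genes. The median over the 67 genes was 0.12 with a background from all genes, 0.15 with no background correction, 0.28 with median scaling and 0.12 without the filter. Median scaling kept 28 calls and left 5 genes higher in DC, a complex I core median of 0.48, accessory values of 2 genes higher in DC and a median of 0.04, and complex III values of 0 higher in DC and a median of 0.24; the cause was not tested. Without the filter, which adds undetected genes, the core median was 0.30 and 3 accessory genes were higher in cB. The complex III median was 0.32 with the authors' values, which leave out Uqcrc2. With median scaling the uncalled Ndufa8, Ndufb3, Ndufc1 and Uqcrc2 turned to 0.03, 0.01, 0.04 and 0.09.

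Leaving out each array kept 34 to 37 calls, with 23 to 26 genes higher in cB and 10 to 13 higher in DC. Cox6a2 could be tested only with all 4 cB arrays. Complex II had 0 to 1 genes higher in cB (Sdhb, without cB replicate 4), and complex III had 0 to 1 higher in DC (0 without cB replicate 1, cB replicate 2, DC replicate 3 or DC replicate 4) and a median of 0.05 to 0.15. Uncalled differences that changed sign were Atp5l (-0.02 to 0.07), Cox6b1 (-0.03 to 0.04), Cox7b (-0.12 to 0.21) and Ndufa3 (-0.01 to 0.11). Dim rows limit precision most: the 6 called genes whose size moved by over 1.5 times with the background were Cox6a2, Cox6b2, Cox7a1, Cox7a2, Ndufb10 and Ndufb9.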

Other observations

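Sdhc was not the only bright row without a detection call. Of the 4209 rows whose detection p-values did not lie on the negative-control step, 28 had a mean normalized log2 level of at least 10 and failed the detection filter, whereas no such row was found among the 13929 rows on the step. Of the 79 rows described here, 8 were off the step: Atp5j, Cox6b2, Cycs, Ndufa5, Ndufb11, Ndufs4, Sdhb and Sdhc. No header or label says how the detection p-values of these rows were made.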
